A study of Sus scrofa with 12 samples.

Results

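The bone morphogenetic protein (BMP) pathway was followed through 10 genes in RNA sequencing of pig embryonic stem cells (ESCs) and fetal fibroblasts. The 10 were the ligands BMP2, BMP4 and BMP7, the receptors BMPR1A and BMPR2, the pseudoreceptor BAMBI, and the target genes ID1, ID2, ID3 and ID4. They were chosen by gene symbol as well-known parts of the pathway, and where several loci carried a symbol, the annotated locus with the highest mean level stood for it. All 10 were among the 30012 loci of the deposited table. Of these 10, 9 passed a filter on low values (at least 1 FPKM in at least 3 libraries), as did 18278 loci in all. FPKM divide fragment counts by transcript length and by library size. Loci under 300 bp took 54.8% to 80.6% of the summed FPKM, so levels are compared here only between loci of at least 1000 bp, a length that every member locus used has, except where a short second ID3 locus is named.

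The 12 libraries form 4 groups of 3. PG ESC-7 and PG ESC-3 are parthenogenetic lines, derived from activated eggs without a sperm genome, and IVF ESC-11 was derived after in vitro fertilisation. The 3 lines stand for 1 derivation each. The fibroblasts came from a fetus at 30 days post coitum and were used at passage 6. ESCs grew on feeder cells of a species that is not stated, in KSR medium with FGF2 (20 ng/mL), ActA (5 ng/mL), CH (1.5 µM) and IWR-1 (2.5 µM), with Y-27632 (10 µM) for 24 h on each side of passaging. No BMP ligand and no BMP receptor inhibitor is named among these additions. Before RNA extraction the ESCs were enriched on magnetic columns for SSEA1, a surface sugar used here to select undifferentiated cells away from differentiated and feeder cells, and no such sort is given for the fibroblasts. Libraries of polyA RNA were sequenced in pairs of 100 bp reads. Whether the 3 libraries within a group are separate cultures is not stated, and the p-values reflect the spread among those libraries, possibly a technical one. Means are given ± SD over libraries, which are 9 for ESCs, 6 for the parthenogenetic lines together and 3 for a single line or fibroblasts.

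BMP ligands are secreted dimers that bring together type I and type II receptor kinases on the cell surface. The type II receptor activates the type I receptor, which phosphorylates SMAD1, SMAD5 and SMAD9. These join SMAD4 in the nucleus and switch on target genes, of which the ID genes are the best known in many cell types. ID proteins are helix-loop-helix proteins without a DNA-binding region, and they hold E proteins such as TCF3 and TCF12 away from DNA. In mouse ESCs, BMP4 helps to maintain self-renewal through Id genes, whereas in human pluripotent cells added BMP4 drives differentiation toward trophoblast and mesoderm.

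The libraries had 21898 to 24100 loci above 0 and a median FPKM of 4.59 to 5.05 over those loci. All 7 pluripotent stem cell markers had a mean of at least 1 FPKM in each ESC line, with a summed level of 2760 to 3064 FPKM in ESC libraries and 1.31 to 1.74 FPKM in fibroblast libraries, where EPCAM was listed at 0. All 8 fibroblast markers had a mean of at least 1 FPKM in fibroblasts, with a sum of 72.5 to 112 FPKM in ESC libraries and 16117 to 16289 FPKM in fibroblast libraries. Of 5 trophectoderm markers, KRT7 was left out because its locus is under 300 bp. The other 4 summed to 43.0 to 57.5 FPKM in ESC and 23.5 to 24.4 FPKM in fibroblast libraries, nearly all of it TEAD4, at a mean of 51.0 FPKM in ESCs and 22.1 FPKM in fibroblasts. GATA3 averaged 0.0140 FPKM in ESCs and 1.84 FPKM in fibroblasts, HAND1 reached at most 0.149 FPKM, and CDX2 was listed at 0 in the parthenogenetic lines and in fibroblasts. Neural markers summed to 5.35 to 6.86 FPKM in ESC and 40.7 to 42.1 FPKM in fibroblast libraries. Endoderm markers summed to at most 2.89 FPKM, mesoderm markers to at most 0.678 FPKM, and blood and endothelial markers to at most 3.24 FPKM, in any library. The listed markers T (mesoderm), SOX1 (neural) and CDH5 (blood and endothelial) were not found by symbol and are not in these sums. Across genes, libraries of the same group correlated at 0.9796 to 0.9853, and libraries of different ESC lines at 0.9498 to 0.9630.

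ESCs and fibroblasts differed in most of the 10 genes. BMP7 and BAMBI were higher in ESCs, while BMPR2, ID1, ID2 and ID3 were lower. A locus was called when its Benjamini-Hochberg adjusted p from limma was under 0.05 and the difference of log2(FPKM + 1) was at least 1 in size. By this rule 6 of the 9 tested members were called, 2 higher and 4 lower in ESCs. Of all 18278 tested loci, 43.1% were called in this comparison, 28.1% higher and 14.9% lower. Without the fold minimum 8 of 9 members passed the p threshold, beside 87.7% of loci. The split over all loci depended on the scaling, with 5144 higher and 2730 lower as deposited, 3489 and 3476 after quantile normalization, and 3539 and 3707 after scaling by median ratios. The same 6 members were called in each ESC line against the fibroblasts, where 43.4% (PG ESC-7), 44.1% (PG ESC-3) and 42.9% (IVF ESC-11) of loci were called. These 3 comparisons share their fibroblast libraries. The 9 ESC and 3 fibroblast libraries did not overlap for 7 members, the 6 called ones and ID4, a pattern that 75.1% of all tested loci also showed. The median log2 difference was -0.66 over the members and 0.44 over all tested loci. In these bulk samples, fewer cells that make a transcript and less of it per cell cannot be told apart.

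**Figure D1:**
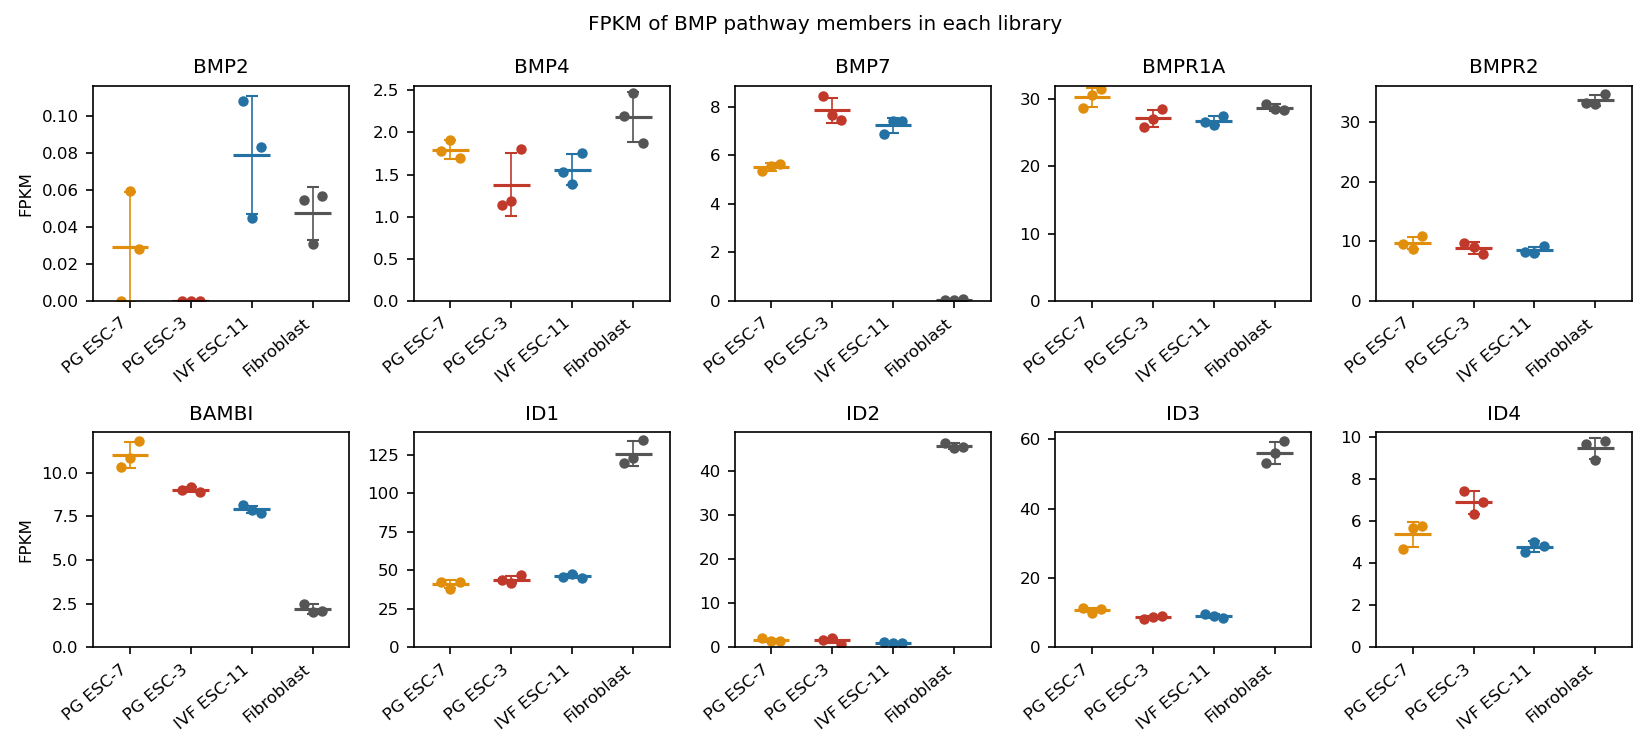
FPKM of the 10 genes (vertical axes, each from 0) in the libraries of PG ESC-7, PG ESC-3, IVF ESC-11 and fibroblasts. Points are libraries, horizontal lines are group means and bars are SD (n = 3). ID1, ID2, ID3 and BMPR2 lie lower in every ESC library than in every fibroblast library, BMP7 and BAMBI lie higher, and BMPR1A has similar values in all groups.

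Among the ligands, BMP7 was the one with a large difference. It lies on chromosome 17 (64734077 to 64840711, minus strand, Sscrofa10.2). BMP7 had 5.35, 5.56 and 5.66 FPKM in PG ESC-7, 8.45, 7.69 and 7.46 FPKM in PG ESC-3, and 6.90, 7.41 and 7.41 FPKM in IVF ESC-11, against 0.0260, 0.0300 and 0.0515 FPKM in fibroblasts. Every ESC library was far above every fibroblast library, where BMP7 was close to undetected. The log2 difference was 2.91 ± 0.04 (SE, limma, adjusted p = 6.26e-13). Because 1 was added to FPKM before taking logs, this value understates the ratio of a gene so low in fibroblasts, and it was 5.67 with a pseudocount of 0.1 and 1.23 with a pseudocount of 5.

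BMP4, a ligand often added to stem cell cultures, was low in both cell types. It lies on chromosome 1 (203773959 to 203849112, minus strand). BMP4 had 1.78, 1.91 and 1.70 FPKM in PG ESC-7, 1.14, 1.18 and 1.81 FPKM in PG ESC-3, and 1.53, 1.39 and 1.75 FPKM in IVF ESC-11, against 2.20, 2.47 and 1.88 FPKM in fibroblasts. The ESC and fibroblast values overlapped through PG ESC-7, whose highest library lay above the lowest fibroblast library. The log2 difference was -0.31 ± 0.09 (SE, limma, adjusted p = 0.00828), past the p threshold and under the fold minimum. Among tested loci of at least 1000 bp, the ESC mean of BMP4 lay at percentile 15.3 and its fibroblast mean at percentile 26.2. Loci that failed the filter on low values are not in this scale.

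BMP2 was not tested. It is annotated on 2 loci of chromosome 17, and the one used (17402040 to 17412718) had 0 to 0.0594 FPKM in PG ESC-7, 0 in each library of PG ESC-3 and 0.0450 to 0.108 FPKM in IVF ESC-11, against 0.0307 to 0.0566 FPKM in fibroblasts. The other locus (17052609 to 17062958) reached at most 0.147 FPKM, in a PG ESC-3 library, and was listed at 0 in the other groups. At these levels a difference between groups could not be shown.

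The receptors behaved differently from each other. BMPR1A, a type I receptor (chromosome 14, 94997637 to 95283615, plus strand), had 28.7, 30.6 and 31.5 FPKM in PG ESC-7, 25.9, 27.1 and 28.5 FPKM in PG ESC-3, and 26.6, 26.2 and 27.5 FPKM in IVF ESC-11, against 29.3, 28.6 and 28.4 FPKM in fibroblasts. The groups overlapped, and the log2 difference between ESCs and fibroblasts was -0.04 (95% interval -0.12 to 0.04, limma, adjusted p = 0.348). Relative to the median of all loci the difference was -0.48. The BMPR1A locus overlaps GLUD1, which encodes glutamate dehydrogenase, by 59555 bp on the opposite strand. GLUD1 averaged 331 ± 23.3 FPKM in ESCs and 166 ± 4.57 FPKM in fibroblasts, and strandedness is not stated, so reads of the overlap cannot be told apart.

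BMPR2, a type II receptor for BMPs (chromosome 15, 117425878 to 117597333, plus strand), was lower in ESCs. It had 9.60, 8.67 and 10.8 FPKM in PG ESC-7, 9.68, 9.11 and 7.83 FPKM in PG ESC-3, and 8.14, 8.10 and 9.15 FPKM in IVF ESC-11, against 33.2, 33.0 and 34.8 FPKM in fibroblasts. The groups lay far apart, and the ESC mean was 26.8% of the fibroblast mean. On the log2 scale it differed by -1.80 ± 0.07 (SE, limma, adjusted p = 1.25e-09). Side by side, BMPR1A had 28.1 ± 1.94 FPKM and BMPR2 9.01 ± 0.951 FPKM in ESCs, whereas in fibroblasts BMPR1A had 28.8 ± 0.478 FPKM and BMPR2 33.7 ± 0.949 FPKM.

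BAMBI encodes a membrane protein built like a type I receptor without a kinase domain, which dampens signals of the TGF-β and BMP families (chromosome 10, 44241604 to 44248652, plus strand). BAMBI had 10.3, 10.9 and 11.8 FPKM in PG ESC-7, 9.01, 9.18 and 8.89 FPKM in PG ESC-3, and 8.13, 7.89 and 7.70 FPKM in IVF ESC-11, against 2.51, 2.01 and 2.06 FPKM in fibroblasts. All ESC libraries were above all fibroblast libraries. BAMBI differed by 1.68 ± 0.05 (SE, limma, adjusted p = 2.18e-10), and it fell just under the fold minimum, at 0.99, with a pseudocount of 5.

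**Figure D2:**
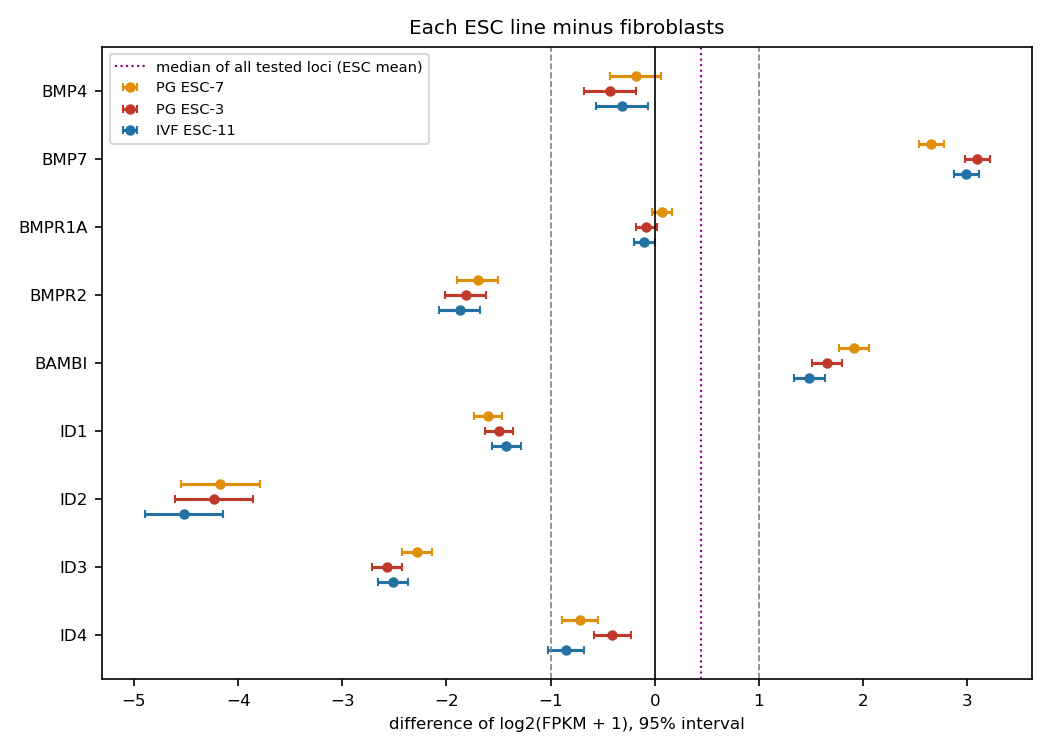
Difference of log2(FPKM + 1) between each ESC line and fibroblasts (horizontal axis) for the 9 tested members, with 95% intervals from limma. Dashed lines mark the fold minimum, and the dotted line marks the median of all tested loci for the ESC mean, at 0.44. BMP7 and BAMBI lie right of the fold minimum in each line, BMPR2, ID1, ID2 and ID3 lie left of it, and BMP4, BMPR1A and ID4 lie between.

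The ID genes had lower means in ESCs, each to a different degree, and ID1, ID2 and ID3 were called. ID1 (chromosome 17, 40187156 to 40188384) had the highest level of the 4 in every library. It had 42.5, 37.9 and 42.2 FPKM in PG ESC-7, 43.4, 41.9 and 46.7 FPKM in PG ESC-3, and 45.9, 47.5 and 45.1 FPKM in IVF ESC-11, against 119.5, 123 and 135 FPKM in fibroblasts. The ESC libraries kept to a narrow range well below the fibroblasts, at 34.7% of the fibroblast mean. ID1 differed by -1.51 ± 0.05 (SE, limma, adjusted p = 2.8e-10). Among tested loci of at least 1000 bp, ID1 was at percentile 82.9 in ESCs and 95.3 in fibroblasts.

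ID2 (chromosome 3, 135801780 to 135804369, minus strand) showed the largest difference of log2(FPKM + 1) among the 9 tested members, while with a pseudocount of 0.1 it was exceeded by BMP7, at 5.67 in size against -5.00 for ID2. It had 2.03, 1.35 and 1.44 FPKM in PG ESC-7, 1.72, 2.06 and 0.843 FPKM in PG ESC-3, and 1.22, 1.03 and 0.857 FPKM in IVF ESC-11, against 46.3, 45.05 and 45.4 FPKM in fibroblasts. The ESC mean was 3.06% of the fibroblast mean, and the log2 difference was -4.31 ± 0.14 (SE, limma, adjusted p = 2.12e-10). Among tested loci of at least 1000 bp, ID2 was at percentile 13.5 in ESCs and 86.0 in fibroblasts.

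ID3 was read on a scaffold that is not placed on a chromosome (GL896386.1, 11518 to 13442, minus strand). It had 11.2, 9.93 and 11.04 FPKM in PG ESC-7, 8.08, 8.76 and 8.96 FPKM in PG ESC-3, and 9.53, 9.07 and 8.47 FPKM in IVF ESC-11, against 53.1, 55.9 and 59.4 FPKM in fibroblasts. The groups did not overlap, and the log2 difference was -2.46 ± 0.05 (SE, limma, adjusted p = 7.91e-12). A second locus that carries the ID3 symbol, with no annotation and no strand, spans 191 bp (13540 to 13730), 97 bp from the first. Its FPKM was far higher, at 5030 ± 2391 in ESCs and 44789 ± 12618 in fibroblasts, so the level of ID3 relative to the other ID genes depends on which locus is counted. The direction of ID3 between ESCs and fibroblasts was the same with the loci summed.

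ID4 (chromosome 7, 16178008 to 16182991) differed least among the 4 ID genes. It had 4.69, 5.68 and 5.78 FPKM in PG ESC-7, 7.46, 6.36 and 6.90 FPKM in PG ESC-3, and 4.55, 5.03 and 4.82 FPKM in IVF ESC-11, against 9.67, 8.93 and 9.84 FPKM in fibroblasts. Every ESC library lay under every fibroblast library, at 60.1% of the fibroblast mean. ID4 differed by -0.66 ± 0.06 (SE, limma, adjusted p = 2.65e-06), under the fold minimum as deposited and past it, at -1.06, after scaling by median ratios.

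**Figure D3:**
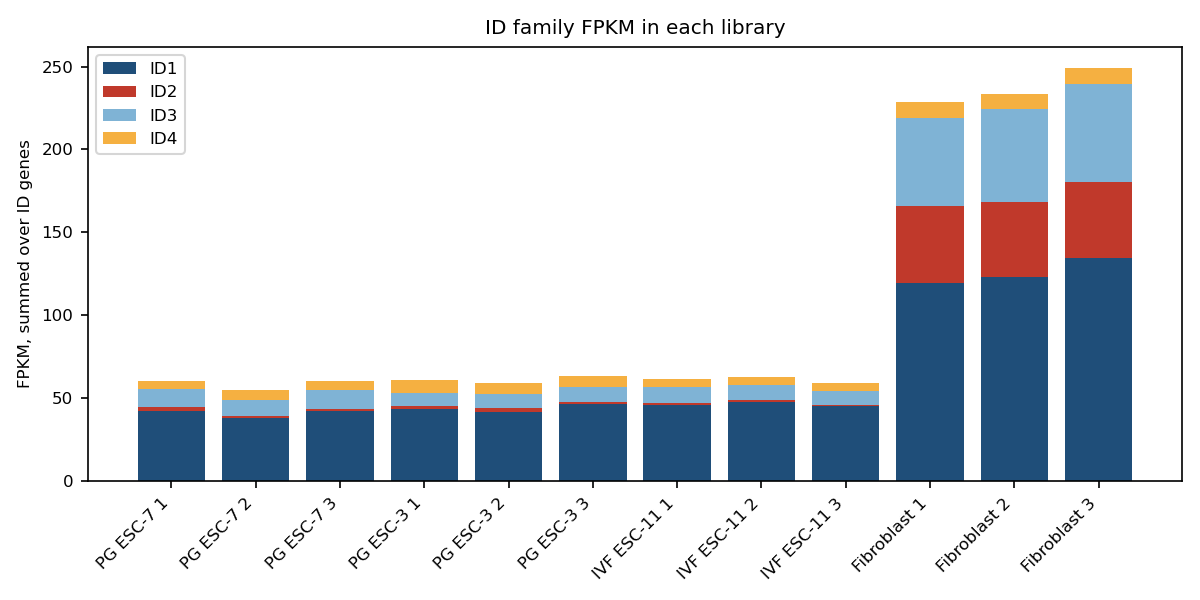
FPKM of ID1, ID2, ID3 and ID4 stacked for each of the 12 libraries (vertical axis, from 0, with the annotated ID3 locus alone). The sum was 60.2 ± 2.47 FPKM in ESCs and 237 ± 10.9 FPKM in fibroblasts, and the ID2 segment is barely visible in ESC libraries.

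The composition of the ID family is given by the share of each gene in its sum. With the annotated locus of each gene, ID1 made up 72.5 ± 2.72% of the summed FPKM in ESCs and 53.1 ± 0.899% in fibroblasts. ID2 held 2.32 ± 0.792% in ESCs and 19.3 ± 1.04% in fibroblasts. ID3 held 15.7 ± 2.02% in ESCs and 23.7 ± 0.398% in fibroblasts, and ID4 held 9.47 ± 1.71% in ESCs and 4.00 ± 0.207% in fibroblasts. These shares were not tested. In all 9 ESC libraries the order of levels was ID1, ID3, ID4, ID2, while in all 3 fibroblast libraries it was ID1, ID3, ID2, ID4. When the short ID3 locus was added, ID3 made up 98.3% of the sum in IVF ESC-11, the lowest of the group means, and 99.6% in fibroblasts, the highest.

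The ESC levels of the fibroblast markers were set beside those of the ID genes and BMPR2. As a share of the fibroblast mean, the 8 markers had ESC levels of 0.00996% (COL3A1, a fibrillar collagen) to 3.51% (THY1, a surface glycoprotein). ID2, at 3.06%, lay below THY1 alone and above the other 7 markers, of which PDGFRB was highest at 1.07%. ID3 at 16.8%, BMPR2 at 26.8%, ID1 at 34.7% and ID4 at 60.1% lay above all 8. The part of other cells in the ESC levels of these markers and members was not tested.

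Quantile normalization and scaling by median ratios lowered the difference from fibroblasts of every tested member, by unequal amounts. The median of all loci, 0.44 as deposited, was 0.10 after quantile normalization and 0.07 after scaling by median ratios. Relative to that median, the differences as deposited were 2.47 for BMP7, 1.24 for BAMBI, -0.75 for BMP4, -2.24 for BMPR2, -1.95 for ID1, -4.75 for ID2, -2.90 for ID3 and -1.10 for ID4. The 6 called members kept their direction under every scaling. Under the scalings, a call against fibroblasts was lost for ID1 in IVF ESC-11 alone, at -0.60 with scaling to the same sum, a sum held mostly by loci under 300 bp.

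The other genes of the pathway came from 6 lists of 60 genes, 53 of which were in the table and 37 tested. Of these 37, 6 were called higher and 16 lower in ESCs than in fibroblasts, beside 28.1% higher and 14.9% lower among all tested loci. The counts of single lists below stand against the same shares. A single locus stood for each gene, chosen as for the members. Of the genes named below, the symbol SMURF2 is carried by 4 loci, BMPR1B by 3, and SMAD1, SMAD5, RUNX2 and BMPER by 2 each. Their levels are those of the locus used. Of 9 other ligands in the table, BMP6 alone was tested. It fell to 11.6 ± 0.589 FPKM in ESCs, against 34.6 ± 1.38 FPKM in fibroblasts (-1.5 on the log2 scale). The remaining 8 ligands had at most 0.780 FPKM in any library. BMP10, GDF6, NOG, FSTL1, FSTL3, MSX2 and DLX5 were not analysed here.

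Of 8 other receptors and co-receptors, 2 rose and 3 fell. ACVR2B, a type II receptor used by activins and BMPs, reached 20.8 ± 2.64 FPKM in ESCs and 0.934 ± 0.102 FPKM in fibroblasts (log2 difference 3.49). RGMA, a membrane co-receptor of BMPs, had 16.9 ± 1.98 FPKM in ESCs and 6.49 ± 0.338 FPKM in fibroblasts, a difference of 1.25 that was 0.98 after quantile normalization and 0.85 after scaling by median ratios. BMPR1B, another type I receptor, had 4.53 ± 1.66 FPKM in ESCs and 24.9 ± 1.46 FPKM in fibroblasts (-2.28). ENG, a co-receptor best known in endothelium, was at 4.82 ± 0.314 FPKM in ESCs and 27.4 ± 1.04 FPKM in fibroblasts (-2.29), and its partner ACVRL1 was at 0.228 ± 0.1 FPKM in ESCs and 1.94 ± 0.0383 FPKM in fibroblasts (-1.26).

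Of 8 SMADs and their regulators, 0 rose and 3 fell in limma's test. Before the fold minimum 8 of 8 passed an adjusted p of 0.05, beside 87.7% of all tested loci. The receptor-activated SMAD1 had 15.9 ± 1.54 FPKM in ESCs and 19.3 ± 1.69 FPKM in fibroblasts (-0.27), and SMAD5 had 4.02 ± 0.247 and 6.08 ± 0.453 FPKM in ESCs and fibroblasts (-0.49). The third of them, SMAD9, was at 0.0922 ± 0.0372 FPKM in ESCs and 17.7 ± 0.221 FPKM in fibroblasts, a log2 difference of -4.10 ± 0.04 (SE, limma, adjusted p = 4.51e-14). SMAD4, the shared partner, had 53.1 ± 2.65 FPKM in ESCs and 40.96 ± 1.41 FPKM in fibroblasts (0.36, but -0.07 after scaling by median ratios). SMAD6, an inhibitory SMAD that is itself a BMP target, fell to 2.01 ± 0.493 FPKM in ESCs, against 14.8 ± 0.83 FPKM in fibroblasts (-2.41). SMURF2, a ubiquitin ligase that acts on SMADs and receptors, was at 42.0 ± 4.81 FPKM in ESCs and 121 ± 3.9 FPKM in fibroblasts (-1.51).

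Secreted antagonists and binding proteins held the widest differences, with 2 of 9 higher and 4 lower in ESCs. FST, follistatin, which binds activins and some BMPs, had 156 ± 10.6 FPKM in ESCs and 1.63 ± 0.276 FPKM in fibroblasts (log2 difference 5.91). CHRD, chordin, had 16.4 ± 5.19 FPKM in ESCs and 3.22 ± 0.427 FPKM in fibroblasts (1.99). GREM1, gremlin, had 0.1 ± 0.0797 FPKM in ESCs and 249 ± 9.17 FPKM in fibroblasts (-7.83). CHRDL1, a chordin-like antagonist, had 1.59 ± 0.283 FPKM in ESCs and 94.2 ± 7.68 FPKM in fibroblasts (-5.20), CRIM1, a transmembrane BMP-binding protein, differed by -3.60, and TWSG1, a binding partner of chordin, by -1.98. The highest level among the antagonists was that of FST in ESCs and that of GREM1 in fibroblasts. NBL1, another secreted antagonist, was at 137 FPKM in ESCs and 144 FPKM in fibroblasts and was not called.

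**Figure D4:**
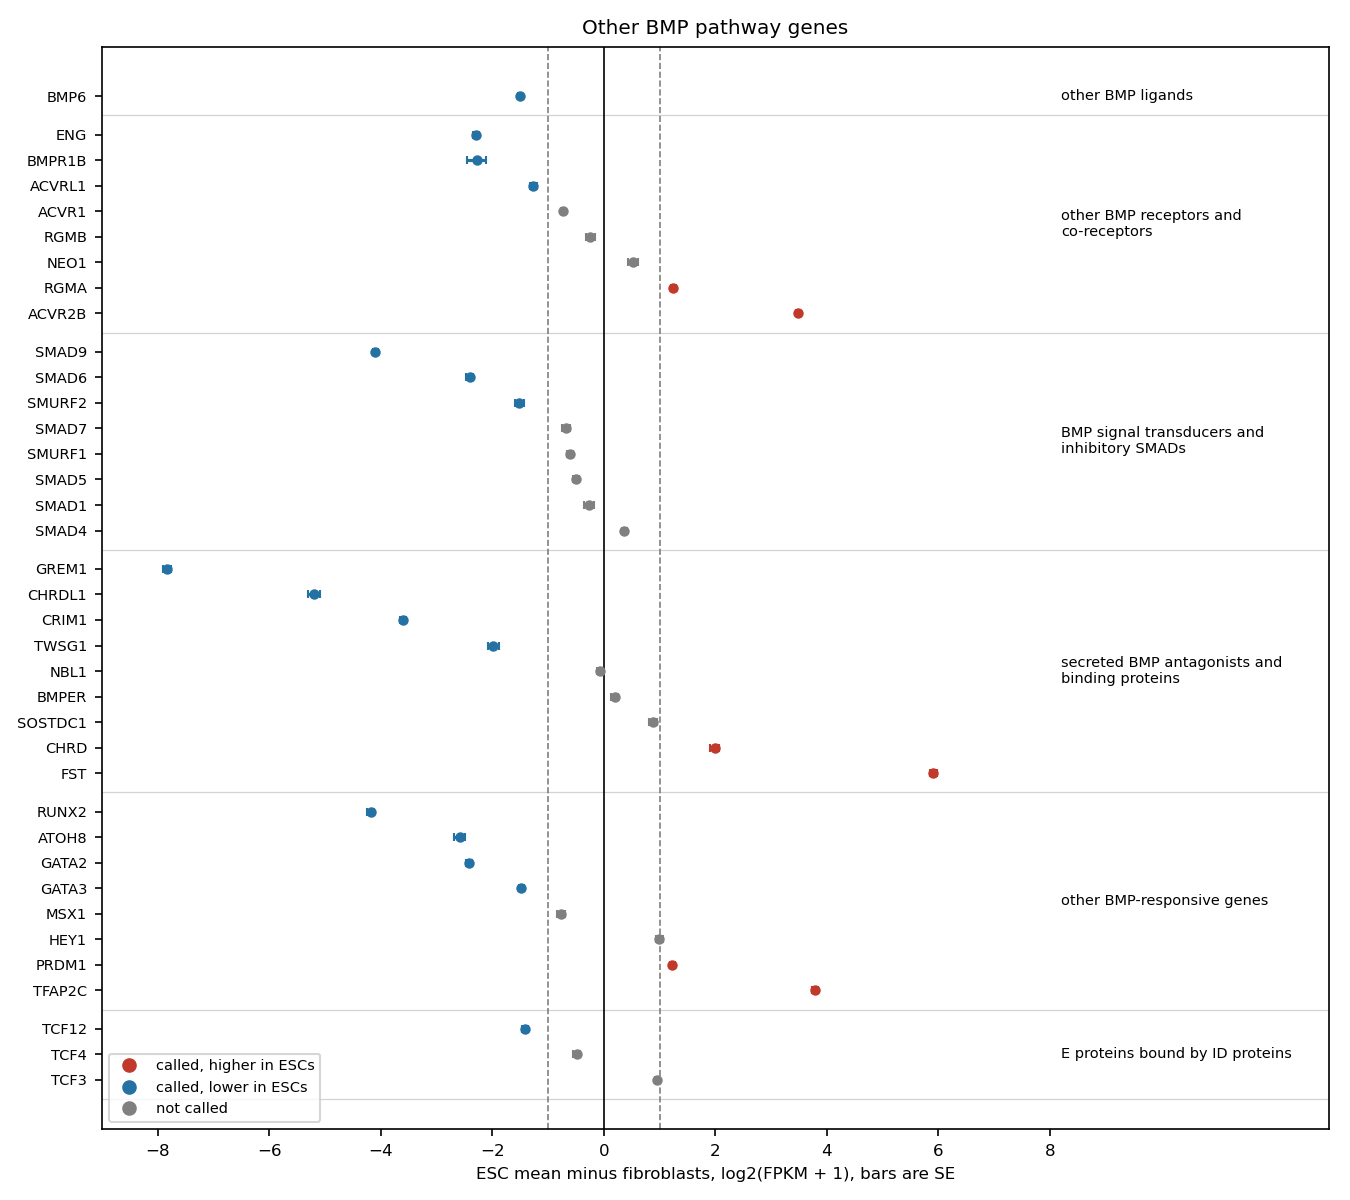
Difference of log2(FPKM + 1) between the ESC mean and fibroblasts (horizontal axis) for the 37 tested genes of the 6 lists, with SE bars from limma. Dashed lines mark the fold minimum. GREM1 lies farthest left at -7.83 and FST farthest right at 5.91, both in the list of secreted antagonists.

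Of 8 other BMP-responsive genes, 2 rose and 4 fell. TFAP2C, a transcription factor of trophoblast and germ cells, had 14.1 ± 1.22 FPKM in ESCs and 0.0903 ± 0.0294 FPKM in fibroblasts (3.79). RUNX2, a regulator of bone formation, had 0.249 ± 0.131 FPKM in ESCs and 21.6 ± 1.2 FPKM in fibroblasts (-4.18), ATOH8 differed by -2.58 and GATA2 by -2.42. These genes also answer to other signals and mark cell types, so the list is not a reading of BMP activity alone. Of the 3 E proteins, TCF12 fell to 36.2 ± 2.23 FPKM in ESCs, against 97.8 ± 5.64 FPKM in fibroblasts (-1.41), TCF3 was at 40.6 ± 5.06 FPKM in ESCs and 20.4 ± 0.676 FPKM in fibroblasts (0.95, under the fold minimum), and TCF4 was at 8.55 ± 0.986 FPKM in ESCs and 12.3 ± 0.486 FPKM in fibroblasts (-0.49).

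Between ESC lines no member reached the fold minimum in the values as deposited. In limma's test 0 of 9 were called in the mean of the parthenogenetic lines against IVF ESC-11, in either line against it, or in PG ESC-7 against PG ESC-3, where 2.2%, 2.48% (PG ESC-3 against IVF ESC-11), 2.94% (PG ESC-7 against IVF ESC-11) and 3.38% of all loci were called. At an adjusted p under 0.05 without a fold minimum the member counts were 2, 1, 4 and 5 in the same order, beside 19.7%, 23%, 30.9% and 39.9% of all loci. At an unadjusted p under 0.05 they were 5, 2, 5 and 5. The share of all loci at that unadjusted threshold was not computed, and it is at least as large as the adjusted shares. With 2 parthenogenetic lines against 1 IVF line, embryo origin and line cannot be told apart.

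**Figure D5:**
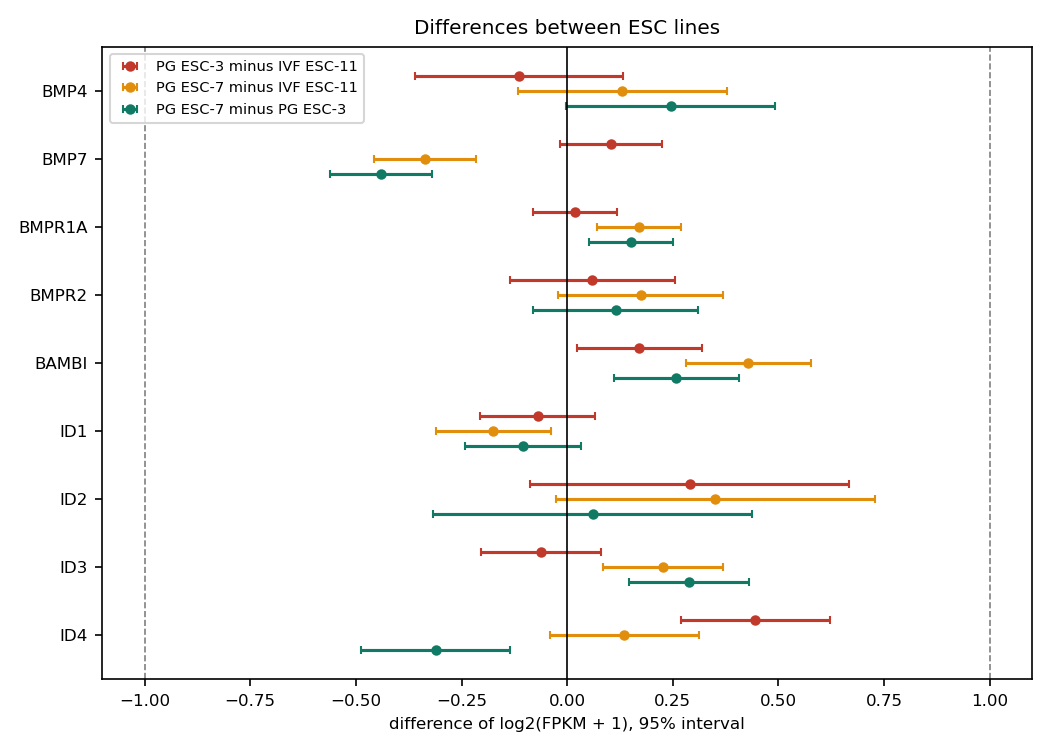
Difference of log2(FPKM + 1) between pairs of ESC lines (horizontal axis) for the 9 tested members, with 95% intervals from limma. Dashed lines mark the fold minimum. Every interval lies inside it, and those of BMP7 and ID4 in PG ESC-7 minus PG ESC-3 lie left of 0.

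BAMBI had the clearest order, with all PG ESC-7 libraries above all PG ESC-3 libraries, and these above all IVF ESC-11 libraries. The parthenogenetic mean exceeded IVF ESC-11 by 0.30 ± 0.06 on the log2 scale (SE, limma, adjusted p = 0.0051), and PG ESC-7 alone by 0.43. BMP7 averaged 5.52 ± 0.158 FPKM in PG ESC-7, 7.86 ± 0.518 FPKM in PG ESC-3 and 7.24 ± 0.297 FPKM in IVF ESC-11. Its PG ESC-7 libraries were below all other ESC libraries, with a log2 difference of -0.44 ± 0.05 from PG ESC-3 (SE, limma, adjusted p = 0.000128). ID4 averaged 5.38 ± 0.599 FPKM in PG ESC-7, 6.91 ± 0.551 FPKM in PG ESC-3 and 4.80 ± 0.245 FPKM in IVF ESC-11, with PG ESC-3 above the other lines in every library. ID4 differed by 0.45 ± 0.08 between PG ESC-3 and IVF ESC-11 (SE, limma, adjusted p = 0.00298). These 3 differences held under quantile normalization, median-ratio and upper-quartile scaling, whereas with scaling to the same sum of FPKM, over all loci or those of at least 300 bp, the sign turned for BAMBI and ID4 against IVF ESC-11.

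ID3 and BMPR1A were higher in PG ESC-7 than in PG ESC-3 by 0.29 and 0.15, and than in IVF ESC-11 by 0.23 and 0.17, the pair against IVF ESC-11 with the sign turned under both scalings to the same sum. For BMP4, BMPR2, ID1 and ID2 no difference between lines reached an adjusted p of 0.05. The 95% intervals for the parthenogenetic mean minus IVF ESC-11 were -0.21 to 0.22 for BMP4 and -0.05 to 0.29 for BMPR2. They were -0.24 to -0.004 for ID1 and -0.01 to 0.65 for ID2. In the values as deposited, a difference of 1 in log2(FPKM + 1) lies outside each interval. At the low level of ID2, 1.04 FPKM in IVF ESC-11, the added 1 shrinks differences. Its interval therefore does not exclude a log2 difference of 1 in FPKM itself. With scaling to the same sum the difference was -1.29 for ID1 and -0.97 for BMPR2.

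Of the 37 other pathway genes, 1 was called in each of these comparisons, beside 2.2% to 3.38% of all tested loci. It was CHRD between PG ESC-7 and PG ESC-3 and BMPER in each comparison with IVF ESC-11. BMPER, a secreted BMP-binding protein, had 5.14, 5.99 and 5.36 FPKM in PG ESC-7 and 6.92, 6.13 and 6.58 FPKM in PG ESC-3, against 0.327, 0.169 and 0.211 FPKM in IVF ESC-11. Both parthenogenetic lines were above the fibroblasts, which had 2.43 ± 0.201 FPKM, and the IVF line below them. The log2 difference of the parthenogenetic mean from IVF ESC-11 was 2.50 ± 0.07 (SE, limma, adjusted p = 2.9e-09). The BMPER symbol is carried by 2 loci, and with both summed PG ESC-3 minus IVF ESC-11 was 0.86 and not called. CHRD had 22.7, 22.5 and 22.001 FPKM in PG ESC-7, against 9.003, 10.9 and 12.04 FPKM in PG ESC-3. The log2 difference was 1.02 ± 0.10 (SE, limma, adjusted p = 2.83e-05), and it was 0.91 without library 1 of PG ESC-3 and 0.98 after quantile normalization.

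For each tested member, the 2 loci with the most similar profile over the 12 libraries were sought among 10704 other named Ensembl loci of at least 1000 bp, by the root mean square (RMS) difference of mean-centred log2(FPKM + 1). BMP7 was nearest to DCT (RMS 0.0552), BMPR1A to ADAM17 (0.0444), BMPR2 to TLN1 (0.0775), BAMBI to TMEM25 (0.0646) and ID1 to PCDH10 (0.0747). ID3 was nearest to EPB41L1 (0.0735), ID4 to SLC30A1 (0.0773), BMP4 to SC4MOL (0.0943) and ID2 to MBNL1 (0.19). Of the 18 nearest loci, 8 were found again after quantile normalization.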

How the data were processed

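RNA of 12 libraries in 4 groups was measured. The authors deposited FPKM for 30012 loci in a single table. Build Sscrofa10.2, Cufflinks 2.1.1 and STAR 2.4.0b appear, with no roles given, in the submitters' processing notes. Strandedness and multiply mapped reads are not given in the sources used here. The table holds no counts, so depth is unknown and no counting interval is given. The steps of low values put relative depth at 0.736 to 1.21 of that of fibroblast library 1.

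Values were used as log2(FPKM + 1), unscaled, in 18278 loci with at least 1 FPKM in at least 3 libraries. One group-means model of all 12 libraries was fitted with limma 3.58.1 (R 4.3.3), with variances that follow the mean, and p-values were adjusted by Benjamini-Hochberg over all tested loci. Tests were two-sided. A call required both an adjusted p below 0.05 and a log2 difference of 1 or more in size. The model was tested on simulated data. All members are described. Of each pathway list, up to 4 called genes with the largest difference are named. RGMA, CHRD, TWSG1, NBL1, SMAD1, SMAD4, SMAD5, TCF3 and TCF4 were added after their values were seen. Members and lists were chosen with earlier results of these data known.

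Alternatives were other pseudocounts, filters, scalings, variance settings, library weights, a replicate block, summing loci that share a symbol, and leave-one-out fits over the libraries. Scaling over loci of at least 300 bp, and summed loci for ID shares, were added after the data were seen. Python 3.11.15 with numpy 2.4.6, pandas 2.3.3 and matplotlib 3.10.9 served for tables and plots.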

Additional observations from a re-analysis of the deposited data

Results flagged for a closer look

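The ESC lines share their fibroblasts, so a difference in their distance from fibroblasts equals the difference between lines, which limma tested directly. In 10 cases it reached an adjusted p under 0.05, each below the fold minimum. PG ESC-7 differed from IVF ESC-11 by -0.3366 in BMP7, 0.1699 in BMPR1A, 0.4289 in BAMBI and 0.2258 in ID3 on the log2 scale. PG ESC-7 differed from PG ESC-3 by -0.441 in BMP7, 0.1508 in BMPR1A, 0.2579 in BAMBI, 0.2875 in ID3 and -0.3107 in ID4. PG ESC-3 differed from IVF ESC-11 by 0.4454 in ID4. Of all loci, 30.9%, 39.9% and 23% reached that adjusted p in the same comparisons.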

How the results depend on the processing

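Against fibroblasts, 588 values of members under other settings (apart from dropping the fold minimum) kept direction and call. Of the rest, 8 turned sign, 8 became called and 4 were no longer called. In the leave-one-out fits 432 of 432 values were kept. For many of these values only the p-value could change. Other filters, the variance trend and the replicate block leave a log2 difference as it is, as does leaving out a library of a group not compared. The members called stayed at 6 to 6 in the leave-one-out fits, and at 0 to 0 between lines. Between lines, scaling to the same sum called 4 of 9 members in PG mean minus IVF ESC-11. It called 6 in PG ESC-3 minus IVF ESC-11 and 2 in PG ESC-7 minus IVF ESC-11. Over all loci it called 9895, 12380 and 6046, or 54.1%, 67.7% and 33.1% of the 18278 tested as deposited. The filter was applied again after scaling, so the number of loci tested there may differ. BMP7 (-1.18 and -1.26 in the first and the last) and ID1 (-1.29, -1.39 and -1.20) were among the members called without a change of sign. Without a fold minimum, 2, 1 and 4 were called in those comparisons and 5 in PG ESC-7 minus PG ESC-3. The share of loci under 300 bp in the summed FPKM was 54.8% to 80.6%. The cause of the changes was not tested.

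Signs turned as follows, on the log2 scale. Against fibroblasts, BMPR1A was 0.0070 for the ESC mean with scaling to the same sum, and for PG ESC-7 -0.18 (quantile), -0.37 (median ratios), -0.13 (same sum), -0.19 (upper quartile) and -0.27 (same sum over loci of at least 300 bp). With the same sum, IVF ESC-11 minus fibroblasts was 0.25 for BMP4 and 0.71 for BMPR1A. For PG mean minus IVF ESC-11 the same sum gave -0.75 (BMP4), -1.06 (BMPR1A), -0.97 (BMPR2), -0.78 (BAMBI), -0.36 (ID2), -1.005 (ID3) and -0.73 (ID4), and over loci of at least 300 bp -0.33 (BMP4), -0.45 (BMPR1A), -0.39 (BMPR2), -0.21 (BAMBI), -0.43 (ID3) and -0.19 (ID4). BMP4 was also -0.037 (quantile), -0.016 (median ratios) and -0.011 (upper quartile), and -0.054 to 0.063 leaving out 1 library. For PG ESC-3 minus IVF ESC-11 the same sum gave -1.09 (BMP7), -1.28 (BMPR1A), -1.15 (BMPR2), -1.04 (BAMBI), -0.46 (ID2) and -0.71 (ID4), and over loci of at least 300 bp -0.55, -0.69, -0.60, -0.49, -0.11 and -0.18 for the same genes in that order. BMPR1A was -0.019 (median ratios), -0.00852 (upper quartile) and -0.014 to 0.051 leaving out 1 library, and ID3 was 0.80 with its loci summed. For PG ESC-7 minus IVF ESC-11 the same sum gave -0.56 (BMP4), -0.84 (BMPR1A), -0.78 (BMPR2), -0.52 (BAMBI), -0.26 (ID2), -0.73 (ID3) and -0.75 (ID4), and over loci of at least 300 bp -0.12 (BMP4), -0.21 (BMPR1A), -0.18 (BMPR2), -0.13 (ID3) and -0.19 (ID4). For PG ESC-7 minus PG ESC-3, ID1 was 0.19 (same sum) and 0.24 (at least 300 bp), and ID2 -0.10 (quantile), -0.026 (library weights) and -0.15 to 0.21 leaving out 1 library. Among other pathway genes, the ESC mean minus fibroblasts was -0.070 for SMAD4 (median ratios), and for BMPER -0.13 (pseudocount 0.1), -0.17 (quantile), -0.12 (median ratios) and -0.13 (same sum, at least 300 bp).

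With all loci of a symbol summed, the ID1, ID2, ID3 and ID4 shares were 0.723%, 0.0270%, 99.15% and 0.0998% in PG ESC-7, 0.817%, 0.0280%, 99.03% and 0.128% in PG ESC-3, 1.51%, 0.0337%, 98.3% and 0.157% in IVF ESC-11, and 0.302%, 0.108%, 99.6% and 0.0226% in fibroblasts.

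Over all loci, 7874 were called between the ESC mean and fibroblasts. Other settings with the fold minimum gave 4554 to 9471, and dropping the fold minimum gave 16029. Between lines the counts were 402 (131 to 9895) for PG mean minus IVF ESC-11 and 454 (157 to 12380) for PG ESC-3 minus IVF ESC-11. They were 537 (209 to 6046) for PG ESC-7 minus IVF ESC-11 and 618 (219 to 7302) for PG ESC-7 minus PG ESC-3. Of the highest counts between lines, 7302 came from dropping the fold minimum and the others from scaling to the same sum. Some settings also changed which loci were tested. No pairing by replicate number was seen. Deviations from the group means correlated at -0.09 to 0.0867 between same-numbered libraries and at -0.16 to 0.179 between others. These values cannot tell whether same-numbered libraries were processed together. Each group holds the same replicate numbers, so the replicate block cannot change a difference and can change only p-values. With it, ID2, at -4.31 between ESCs and fibroblasts, had an adjusted p of 3.83e-09 (limma), and no member's call changed. Depth is unknown, so the precision of values under 1 FPKM cannot be stated.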
